A study of Mus musculus with 12 samples.

Results

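The genes described here are those of creatine synthesis, transport and use and of arginine supply in the mouse kidney, among them Gatm, Gamt, Slc6a8, Ckb, Ckmt1, Ass1 and Asl. They are 8 of the 57180 genes in the count tables, taken by symbol, and all 8 passed the filter on low counts that left 17163 genes for testing. Gatm was chosen by its measured value, its lower level at 20 mg/kg against control in these libraries, and the other 7 were added as its pathway neighbours. Differences of Gatm between groups are therefore given as a description. Where called genes are counted over a list, Gatm is included to complete the count, and its call is not a test result.

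Male C57BL/6J mice with a starting age of 60 days were injected intraperitoneally once a day for 28 days with cannabidiol (CBD), a non-intoxicating compound of the cannabis plant. The vehicle was saline with 2% Tween 80. The groups were Control (vehicle), 10CBD (10 mg/kg) and 20CBD (20 mg/kg), with 4 mice each and 1 kidney RNA library per mouse. The libraries held 17946614 to 23532088 counts on genes in Control, 15417867 to 21977253 in 10CBD and 16306563 to 18219064 in 20CBD.

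Creatine carries high-energy phosphate in muscle and brain. Its synthesis starts in the kidney, where the proximal tubule joins arginine and glycine into guanidinoacetate, and it is completed mostly in the liver, where guanidinoacetate is methylated. The proximal tubule is also the main source of circulating arginine, which it makes from citrulline.

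The libraries had the markers of the labelled tissue. Proximal tubule markers summed to 9484 ± 742 CPM, counts relative to library size adjusted by the TMM method, in Control (SD, n = 4), with Slc34a1, the phosphate transporter, the most abundant at 3553. Markers of skeletal muscle, where creatine kinases abound, summed to 1.31 ± 0.31 CPM in Control, and those of the adrenal cortex to 5.14 ± 0.43.

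Libraries differed in the share of counts on mitochondrially encoded genes. The share was 12.8%, 5.77%, 17.5% and 13.5% in Control replicates 1 to 4. It was 3.53%, 15.3%, 4.55% and 15.3% in 10CBD, and 20.6%, 23.4%, 5.54% and 14.0% in 20CBD. Control 2, 10CBD 1, 10CBD 3 and 20CBD 3 thus stood below 10%, and every group held at least 1 such library. Results for the 8 genes are given with these 4 libraries marked.

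Gatm (ENSMUSG00000027199) encodes arginine:glycine amidinotransferase, the enzyme of the first step of creatine synthesis. The gene lies on the minus strand of chromosome 2, from 122424948 to 122441799 in GRCm39, and its exons overlap no other annotated gene. The 250 bases before its start in RefSeq, whose promoter table is on GRCm38.p6, matched 1 place on chromosome 2 of GRCm39, chr2:122441759-122442008 on the minus strand, and are shown because Gatm is the gene the results turn on:
Gatm promoter: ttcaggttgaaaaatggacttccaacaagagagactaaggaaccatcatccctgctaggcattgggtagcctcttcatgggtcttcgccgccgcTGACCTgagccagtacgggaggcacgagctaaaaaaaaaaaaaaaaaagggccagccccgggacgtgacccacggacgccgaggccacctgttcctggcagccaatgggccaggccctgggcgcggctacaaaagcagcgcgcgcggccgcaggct
The capitals mark the single match, on the opposite strand, to AGGTCA, the core letters that nuclear receptors such as ROR and REV-ERB bind, with its first base 156 bases before the start. These 6 letters occurred on either strand in 14% of the 32851 RefSeq promoters of this length. The E-box CACGTG had 0 matches (6.02% of promoters had at least 1), and the D-box TTANGTAA had 0 (2.06%). These matches describe the letters of the window alone. GC made up 59.2% of it, against a median of 52.4% over all promoters.

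In Control, Gatm stood at 348, 265, 315 and 395 CPM in replicates 1 to 4. In 10CBD it stood at 179, 227, 171 and 225 CPM, and in 20CBD at 193, 168, 118 and 182 CPM. All mice of both doses lay below the lowest control mouse, while the dose groups overlapped each other. The group means were 331 ± 54.6 CPM in Control, 200.3 ± 29.6 in 10CBD and 165 ± 33.1 in 20CBD (SD, n = 4). The log2 difference from Control was -0.72 (SE 0.17) at 10 mg/kg and -1.0 (SE 0.17) at 20 mg/kg, and that between the doses was -0.28 (SE 0.17). In bulk kidney, fewer cells of a type and less RNA per cell cannot be told apart.

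**Figure D1:**
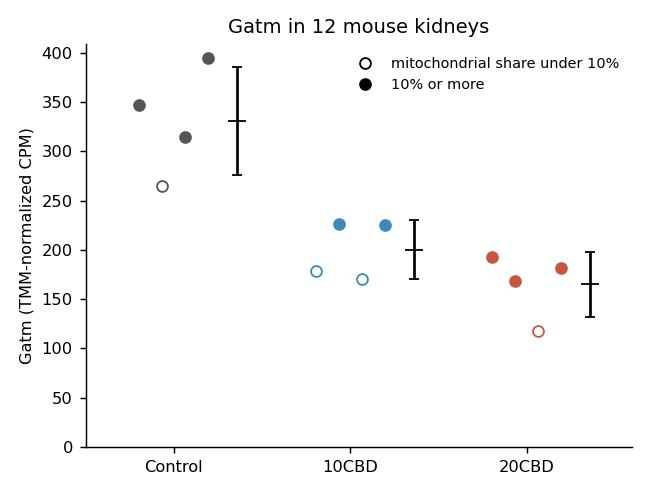
Gatm in each kidney, in TMM-normalized CPM on a linear axis from 0, by group. Points are mice, open where mitochondrial genes held under 10% of counts, and bars are the mean ± SD of 4 mice; the lowest control mouse, at 265 CPM, is above every CBD mouse.

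With 1 library left out in turn, the log2 difference of Gatm from Control at 20 mg/kg ran from -1.09 to -0.87 over 12 fits. That between the doses was -0.15 without 20CBD replicate 3 and -0.48 with the mitochondrial share as a covariate.

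**Figure D2:**
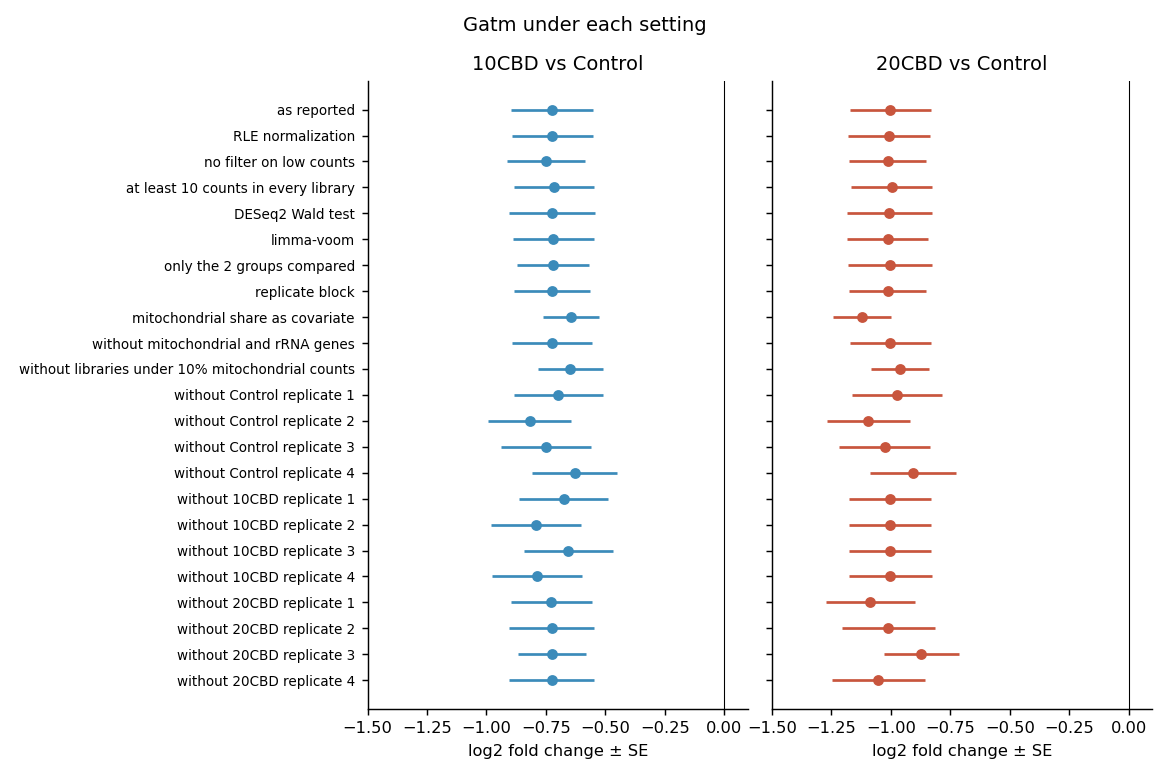
Log2 difference of Gatm from Control (x axis, ± SE) at 10 mg/kg and 20 mg/kg, with processing settings and left-out libraries on the y axis. Points are estimates; those at 20 mg/kg with 1 library left out ran from -1.09 to -0.87.

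Within each group, Gatm was lowest in the libraries of low mitochondrial share. Among the 8 libraries at or above 10%, Gatm averaged 353 CPM in Control, 226 in 10CBD and 181 in 20CBD. Among the 4 libraries below 10%, it was 265 CPM in the single Control library, 175 on average in 10CBD and 118 in the single 20CBD library. The log2 ratios to Control at 10 and 20 mg/kg were -0.64 and -0.96 in the first set and -0.60 and -1.17 in the second, where a single library has no spread. The part of the mitochondrial share in the level of Gatm was not tested.

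Gamt encodes guanidinoacetate methyltransferase, the second step of the pathway. It measured 10.9, 12.7, 15.4 and 12.3 CPM in Control, 14.5, 11.2, 13.6 and 9.80 in 10CBD, and 9.08, 17.2, 18.8 and 14.1 in 20CBD. The 3 groups overlapped, and the 20CBD mice held both the lowest and the highest value. Gamt shares 24.9% of its exon bases with Ndufs7 on the opposite strand, so its counts are uncertain where reads were not counted by strand. Its log2 difference from Control was -0.06 (SE 0.20) at 10 mg/kg and 0.21 (SE 0.20) at 20 mg/kg. Without 20CBD replicate 3 the latter was 0.07, and without 20CBD replicate 1 it was 0.38.

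Slc6a8 encodes the creatine transporter. Its levels were 146, 111, 147 and 145 CPM in Control, 93.1, 118, 105 and 116 in 10CBD, and 136, 167, 106 and 131 in 20CBD. The other 3 control mice lay close together above Control replicate 2, a library of low mitochondrial share that was inside the range of 10CBD. The log2 difference from Control was -0.35 (SE 0.15) at 10 mg/kg, with an adjusted p of 0.828 in edgeR's quasi-likelihood test, and -0.03 (SE 0.15) at 20 mg/kg. In all groups the libraries of low mitochondrial share had the lowest Slc6a8, and the part of that share in the group values was not tested.

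The creatine kinases move phosphate between creatine and ATP, Ckb in the cytosol and Ckmt1 in mitochondria. Ckb was at 92.9, 196, 61.6 and 81.7 CPM in Control, 187, 82.5, 113 and 131 in 10CBD, and 59.5, 66.3, 161 and 93.4 in 20CBD. Ckmt1 was at 62.8, 79.9, 43.0 and 55.8 CPM in Control, 69.3, 48.5, 63.2 and 51.1 in 10CBD, and 37.9, 36.6, 55.4 and 53.8 in 20CBD. For both genes the groups overlapped and the highest mouse of every group was a library of low mitochondrial share. Ckb differed from Control by 0.25 (SE 0.36) on the log2 scale at 10 mg/kg and by -0.18 (SE 0.36) at 20 mg/kg. Single libraries set these values: without Control replicate 2 they were 0.70 and 0.27, and without 10CBD replicate 1 the first was 0.01. Without 20CBD replicate 3 the second was -0.56. With the mitochondrial covariate the value at 20 mg/kg was 0.10. For Ckmt1 the log2 differences were -0.06 (SE 0.19) and -0.40 (SE 0.19), the latter with an adjusted p of 0.614 (edgeR). The difference at 20 mg/kg was -0.23 without Control replicate 2, -0.53 without Control replicate 3 and -0.24 with the mitochondrial covariate. On the opposite strand, Ckmt1 shares 8.41% of its exon bases with Ppip5k1 and 12.9% with Strc, and Ckb shares 7.17% with Trmt61a. Slc6a8 shares 5.55% with Gm61844 and 3.15% with Gm32261, and Asl 1.01% with Gm73169, non-coding RNA genes also on the opposite strand. These overlaps leave the same uncertainty as for Gamt.

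Ass1 and Asl, argininosuccinate synthase and lyase, turn citrulline into arginine. Ass1 was at 2620, 2032, 2227 and 2625 CPM in Control, 2569, 1941, 2178 and 1747 in 10CBD, and 1919, 2040, 1989 and 2403 in 20CBD. Asl ran from 287 to 336 CPM in Control, from 261 to 405 in 10CBD and from 261 to 384 in 20CBD. The groups overlapped for both enzymes, and the highest Asl values were in CBD libraries of low mitochondrial share. In 10CBD these averaged 402 CPM for Asl, against 267.0 in the other libraries of the group, and the part of that share was not tested. The log2 differences from Control were -0.17 (SE 0.16) and -0.19 (SE 0.16) for Ass1 and 0.11 (SE 0.17) and 0.05 (SE 0.17) for Asl, at 10 and 20 mg/kg in turn. Without the libraries of low mitochondrial share, the difference of Asl at 10 mg/kg was -0.22 and that of Ass1 -0.44.

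**Figure D3:**
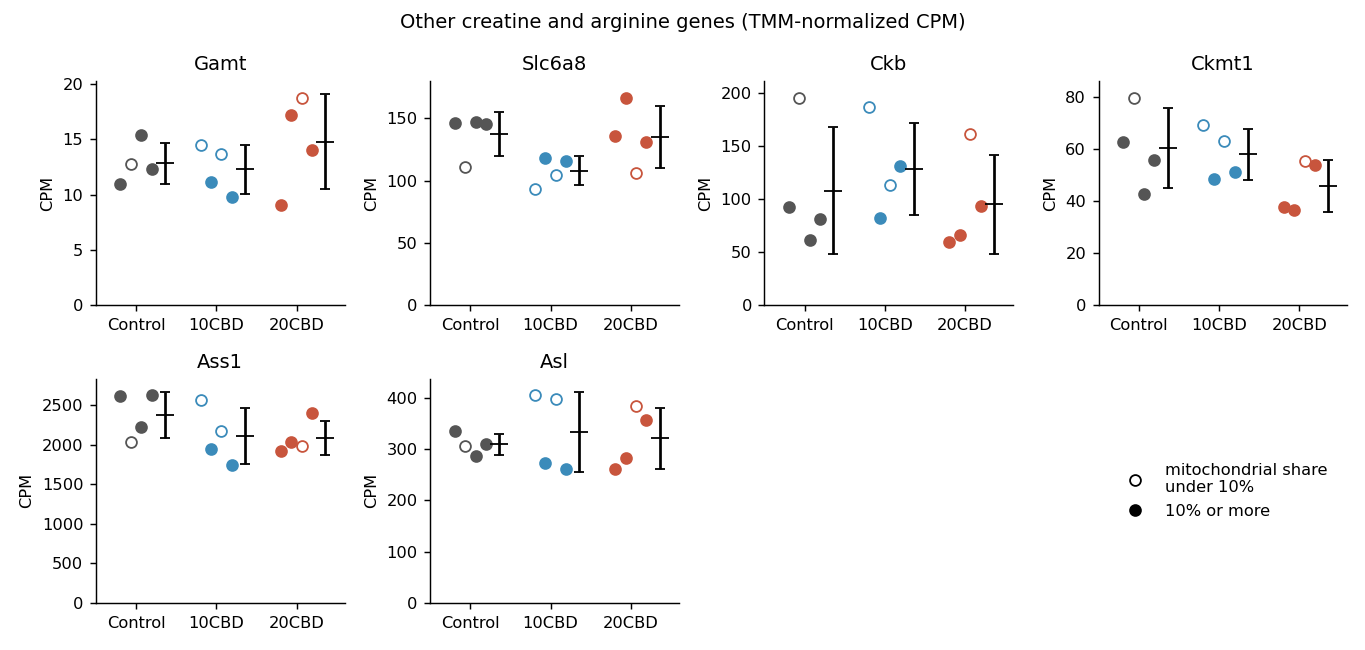
Gamt, Slc6a8, Ckb, Ckmt1, Ass1 and Asl in each kidney, in TMM-normalized CPM on linear axes from 0, by group. Points are mice, open where mitochondrial genes held under 10% of counts, and bars are the mean ± SD of 4 mice; the 3 groups overlap in every panel.

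Scaled to 1 kb of the canonical transcript, the order of levels in Control was Ass1 (1349 ± 168 CPM per kb), Gatm (138 ± 22.7), Asl (116 ± 7.53), Ckb (73.3 ± 40.7), Slc6a8 (34.6 ± 4.47), Ckmt1 (30.8 ± 7.83) and Gamt (2.55 ± 0.37; SD, n = 4). Neighbours whose mice overlapped were Gatm and Asl, Asl and Ckb, and Slc6a8 and Ckmt1. Gatm was rank 2 in Control, rank 4 in 10CBD and rank 3 in 20CBD on this scale. Scaled to the length of all annotated exons instead, it was rank 5 in 20CBD.

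At 10 mg/kg 0 of the 8 genes were called at adjusted p under 0.1, against 0.0291% of all genes tested, and 2, Gatm and Slc6a8, had an unadjusted p under 0.05, against 5.67%. DESeq2 called 1 of the 8 in this comparison, Gatm, among 40 genes called in all. At 20 mg/kg 1 was called, Gatm, the gene chosen on this contrast, against 0.303%, a count from which nothing is read, and it was also the single gene with an unadjusted p under 0.05, against 8.45%. Between the doses 0 were called in edgeR, against 0% of all genes tested. DESeq2 called 0 of the 8 between the doses, beside 12 genes called in all. In edgeR 1 gene, Slc6a8, had an unadjusted p under 0.05 in this comparison, against 6.31%. Genes with all mice of the dose below all control mice numbered 1 of 8 at either dose, Gatm, and 0 of the other 7. The shares over all genes tested were 1.64% at 10 mg/kg and 2.63% at 20 mg/kg. Gatm was chosen by its level against these same control mice, so nothing is read from its separation or its unadjusted p. The 2 dose comparisons share the control mice. Without Gatm, the median log2 difference of the other 7 genes was -0.06 at 10 mg/kg and -0.03 at 20 mg/kg, beside 0.01 over all genes tested in both.

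A wider list of 61 genes of creatine, arginine, ornithine, polyamine, glycine and methyl group metabolism had 54 genes tested. Genes with too few counts included Ckm, Ckmt2, Cps1, Otc and Nags, and Gcat was left out because its symbol belongs to 2 gene identifiers. Gatm was the 1 gene called in the 3 comparisons, at 20 mg/kg, against 0.303% of all genes tested, and 0 were called at that dose without Control replicate 1, Control replicate 4 or 20CBD replicate 2. At an unadjusted p under 0.05, 0 genes were higher and 3 lower at 10 mg/kg, beside 5.67% of all genes tested in either direction. At 20 mg/kg 2 were higher and 6 lower, beside 8.45%, and between the doses 3 were higher and 0 lower at 20 mg/kg, beside 6.31%. The lower genes at both doses include Gatm, chosen by its level. Of the 46 tested genes outside the 8, 0 were higher and 1 lower at 10 mg/kg, and 2 higher and 5 lower at 20 mg/kg. The median log2 difference over the 54 genes was -0.07 at 10 mg/kg and -0.09 at 20 mg/kg, beside 0.01 over all genes tested.

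Slc16a12, a creatine transporter of the proximal tubule, was 78.4 ± 9.08 CPM in Control and 61.9 ± 10.9 in 20CBD, a log2 difference of -0.34 (SE 0.13; adjusted p 0.503, edgeR). Slc7a2, which carries arginine into cells, was 9.23 ± 0.58 CPM in Control, 6.92 ± 1.52 in 10CBD and 6.94 ± 0.53 in 20CBD. All 20CBD mice lay below all control mice for this transporter, as for 2.63% of all genes tested, and it was not called in either comparison (edgeR). Slc25a29, a mitochondrial carrier of basic amino acids, was at 1.34 ± 0.50 CPM in Control and 2.34 ± 0.76 in 20CBD. Its log2 difference was 0.80 (SE 0.30, adjusted p 0.470 in edgeR). The mice of these groups overlapped, and the gene had 422 counts over the 12 libraries.

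Of the 6 genes of arginine breakdown tested, 4 had a positive and 2 a negative difference at 20 mg/kg. Nos3, the endothelial nitric oxide synthase, was 3.84 ± 0.52 CPM in Control and 5.55 ± 0.72 in 20CBD, with no overlap between the mice and an adjusted p of 0.446 in edgeR. Odc1, which makes putrescine from ornithine, was 467 ± 52.6 CPM in Control and 358 ± 54.3 in 20CBD, again without overlap (adjusted p 0.533, edgeR). Of the 46 tested list genes outside the 8, 1 lay wholly above Control at 20 mg/kg and 3 wholly below. Over all genes tested 2.63% lay wholly below, and the share wholly above was not counted. Prodh, the proline dehydrogenase, was the most abundant gene of ornithine and polyamine metabolism, at 224 CPM per kb over all libraries. All 6 tested genes of glycine supply and cleavage had a negative difference at 20 mg/kg, with a median of -0.15, and 0 of them had an unadjusted p under 0.05. Of the 8 genes of methyl group supply and use tested, 4 had a positive and 4 a negative difference at that dose, with a median of -0.03.

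With the mitochondrial share as a covariate, 7 genes of the list were called at 20 mg/kg: Gatm, Ddah2, Gnmt, Slc16a12, Slc25a29, Slc3a1 and Slc7a2. In that fit Gnmt, which uses methyl groups on glycine, had a log2 difference of 0.55, Ddah2, which clears methylarginines, 0.69, and Slc3a1, a subunit of the cystine and basic amino acid transporter, -0.66. Without the covariate the differences of Gnmt, Ddah2 and Slc3a1 were 0.41 (SE 0.24), 0.51 (SE 0.34) and -0.48 (SE 0.24), and 0 of these were called. The fit with the covariate called 1386 of the 17163 genes tested. The 7 include Gatm, the gene chosen on this contrast.

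**Figure D4:**
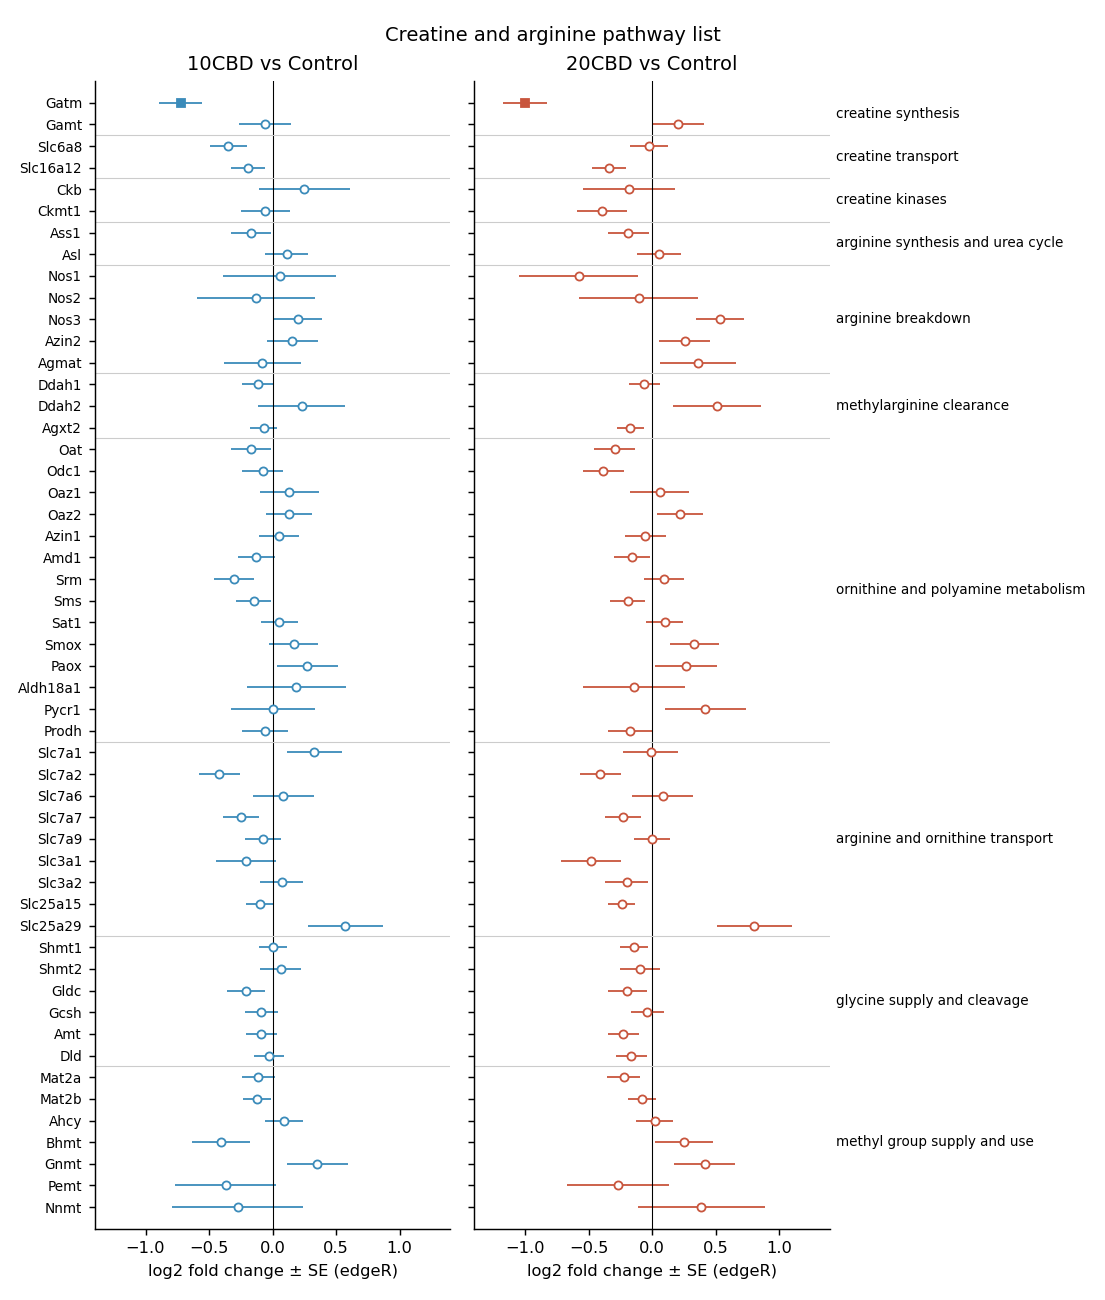
Log2 difference from Control (x axis, ± SE, edgeR) of tested genes of the pathway list at 10 mg/kg and 20 mg/kg, grouped by role. Filled squares mark Gatm, chosen by its level at 20 mg/kg; open circles are the other genes.

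Gatm is a gene of the proximal tubule, so the markers of its segments are given beside it. The 6 markers of all proximal tubule segments, all detected, summed to 9484 ± 742 CPM in Control, 8375 ± 728 in 10CBD and 7572 ± 451 in 20CBD, and every 20CBD mouse lay below every control mouse. The markers differed unequally. At 20 mg/kg the log2 difference was -0.76 for Lrp2, -0.66 for Cubn, -0.37 for Miox and -0.23 for Slc34a1. It was -0.11 for Hnf4a and 0.01 for Ggt1. Taken alone, 2 of the 6 lay wholly below Control, and 0 were called (edgeR). Markers of the S1 and S2 segments summed to 1602 ± 281 CPM in Control, 1412 ± 127 in 10CBD and 1420 ± 220.1 in 20CBD, and the groups overlapped. Of these 4 markers 1 was called at 20 mg/kg, against 0.303% of all genes tested. Slc5a2, the glucose transporter SGLT2 of the early segments, was lower at 20 mg/kg, at 143 ± 13.6 CPM against 217 ± 16.2 (log2 difference -0.61, SE 0.12; adjusted p 0.082, edgeR). The log2 differences of Slc5a12, Slc22a8 and Slc22a6 at that dose were -0.25, -0.18 and -0.03. Markers of the S3 segment summed to 2155 ± 39.1 CPM in Control, 2898 ± 528 in 10CBD and 2228 ± 469 in 20CBD, with Slc7a13 the most abundant over all libraries and Atp11a in Control. All 10CBD mice lay above all control mice in this sum, though for none of the 3 markers alone. The log2 difference at 10 mg/kg was 0.83 for Slc7a13, 0.02 for Slc6a18 and 0.09 for Atp11a, so the higher sum was mostly Slc7a13. The highest sums, 3400 and 3306 in 10CBD and 2791 in 20CBD, were in libraries of low mitochondrial share.

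Gatm per 100 CPM of the summed markers of all segments was 3.48 ± 0.44 in Control, 2.43 ± 0.55 in 10CBD and 2.20 ± 0.52 in 20CBD. All 20CBD mice were below all control mice on this measure, and the 10CBD mice overlapped them. Per 100 CPM of S1 and S2 markers it was 20.8 ± 2.74, 14.2 ± 2.01 and 11.6 ± 1.21, and the mice of both doses lay below the controls. Per 100 CPM of S3 markers it was 15.3 ± 2.36, 7.23 ± 2.33 and 7.82 ± 2.67, with 20CBD above 10CBD in the mean, unlike on the other scales. This last ratio rests on the same S3 sum and so on Slc7a13.

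Adipocyte markers summed to 202 ± 73.5 CPM in Control, 105 ± 32.1 in 10CBD and 94.9 ± 20.2 in 20CBD, and the groups overlapped. Control replicate 3, at 96.4 CPM, lay inside the range of both dose groups, and the other control mice were at 212, 265 and 233. Fabp4 was the most abundant of the 6 markers. The other markers tested had lower values relative to Control than Fabp4: at 20 mg/kg the log2 difference was -0.74 for Fabp4 and -3.42 for Adipoq, and the median of the 5 tested was -3.17. All 5 were lower at 20 mg/kg at an unadjusted p under 0.05, against 8.45% of all genes tested in either direction, and 3 were at 10 mg/kg, against 5.67%. At adjusted p under 0.1, 0 of the 5 were called in edgeR, against 0.303% and 0.0291% of all genes at 20 and 10 mg/kg. Smooth muscle markers summed to 112 ± 7.11 CPM in Control, 139 ± 17.3 in 10CBD and 168 ± 27.0 in 20CBD. Of the 3 markers 1 was called at 20 mg/kg, against 0.303% of all genes tested. This was Myh11, the smooth muscle myosin, at 74.7 CPM in Control and 122 in 20CBD, most of the difference in the sum. Its log2 difference was 0.71 (SE 0.14, adjusted p 0.076 in edgeR), and those of Acta2 and Tagln were 0.31 and 0.34. Beyond the values given, the part of these markers in the level of Gatm was not tested.

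**Figure D5:**
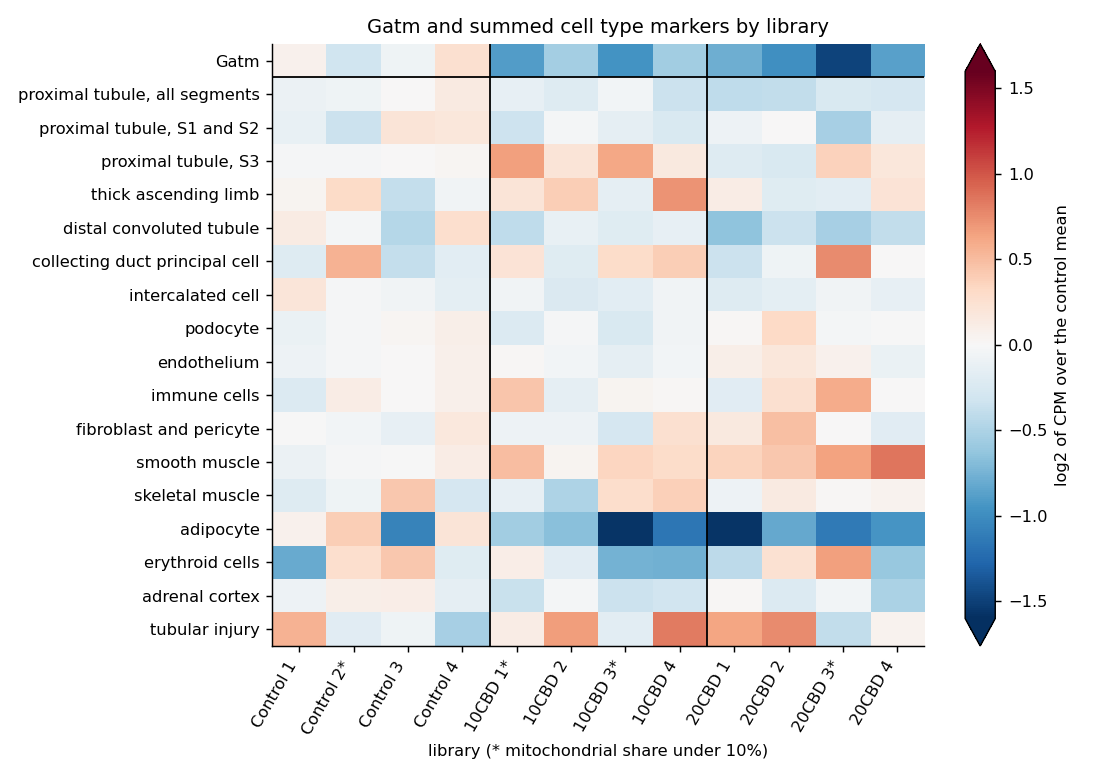
Gatm and the summed markers of each cell type (y axis) in each library (x axis), as log2 of CPM over the control mean; colours stop at 1.6 in either direction. Gatm is below the control mean in all 8 CBD mice, and the proximal tubule sum of all segments has its lowest group mean in 20CBD.

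The genes whose log2 CPM was most like that of Gatm over the 12 libraries were Itga6 (Pearson r = 0.96), Sel1l3 (0.95), Zfp568 (0.93), Slc8a1 (0.93) and Arrdc3 (0.92). The most opposed were Faim (-0.93), Rasgef1a (-0.93) and Gm15327 (-0.92). These correlations include the difference between groups on which Gatm was chosen. After the group means were removed, the closest were Scaf11 (0.97), Jmjd1c (0.97), AB010352 (0.97), Ddx52 (0.97) and Cep120 (0.97). All these correlations rest on the same 12 libraries, which differ in mitochondrial share and depth, and the values are a description.

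For the other genes described, the closest gene over the 12 libraries was Gm48795 for Gamt (r = 0.91), C87436 for Slc6a8 (0.95), Ak1 for Ckb (0.96), Pfkl for Ckmt1 (0.95), Mx2 for Ass1 (0.88) and Bco1 for Asl (0.96). Among the members described, the strongest positive correlation was between the creatine kinases Ckb and Ckmt1 (0.83), and the strongest negative between Slc6a8 and Ckb (-0.83). For Gatm the values ran from -0.45 with Gamt to 0.45 with Slc6a8.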

How the data were processed

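RNA was sequenced from 1 kidney library per mouse. Per the study's methods and the submitters' processing notes, the authors aligned reads with STAR 2.7.5c, counted them per gene with HTSeq 1.99.2 and deposited raw counts, which were used here unchanged. Whether counting used strand, and which annotation, is not given in the sources used here. Lines that name no gene (12.1% to 19.9% on no gene, 4.72% to 5.29% on more than 1) were left out. Symbols came from GENCODE vM39 (GRCm39), which held 56620 of the 57180 identifiers.

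Differences were fitted with edgeR 4.0.16 (quasi-likelihood test, TMM, filterByExpr, 3 groups, R 4.3.3), adjusted by Benjamini-Hochberg over 17163 genes and called at adjusted p under 0.1. The pipeline was tested on simulated data. Alternatives were RLE scaling, other filters, DESeq2 1.42.0, limma-voom 3.58.1, the compared groups alone, a replicate block, the mitochondrial share as covariate, leaving out mitochondrial and rRNA genes or libraries below 10% mitochondrial counts, adjusted p under 0.05, and each library left out.

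Members and lists were chosen with earlier results of these data known. Named genes were the 8 members, the most abundant and lowest-p genes of pathway groups, called genes, the most abundant gene of marker lists and the genes most like each member; of these, examples are given. Some genes of the lists are not reported here by name, though counts and medians over the lists include them.

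The promoter search was not planned, and neither its 3 motifs nor its start site had been set. It was run first on the start of the GENCODE canonical transcript, 41 bases upstream, over 13762 tested protein-coding genes, and RefSeq's start was chosen after that result was seen. Both windows gave 0 matches to the E-box, 0 to the D-box and 1 to AGGTCA. With the GENCODE start the shares of promoters were 7.6%, 1.58% and 11.9%, and GC was 55.6% against a median of 56.4%.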

Additional observations from a re-analysis of the deposited data

Results flagged for a closer look

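Slc6a8 in Control replicate 2, at 111 CPM, lay far from the other 3 control mice, with a gap to the nearest of them that took up 0.945 of the range of the group, more than Dixon's test allows for 4 samples. It was 1 of 24 groups of values checked, and chance gives about 1 in 20. This library had a mitochondrial share of 5.77%, the lowest in its group, and the part of that share was not tested.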

How the results depend on the processing

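Of 528 values of single genes under the alternatives, 525 stayed within 1 SD of the spread between mice. The 3 that moved further came without the libraries below 10% mitochondrial counts: Asl at 10 mg/kg (-0.22), Ass1 at 10 mg/kg (-0.44) and Ass1 between the doses (0.21). Fits with 1 library left out could hardly pass this limit, because the spread includes the mouse left out. Some left out a library of the group not compared. The count of 525 is therefore not read as stability. Without Control replicate 2, Ckb moved from 0.25 to 0.70 at 10 mg/kg and from -0.18 to 0.27 at 20 mg/kg, both within the limit. Under some alternatives signs turned for Gamt and Ckmt1 at 10 mg/kg, Slc6a8 and Ckb at 20 mg/kg, Asl in all 3 comparisons and Ass1 between the doses. Gatm stayed between -0.82 and -0.63 at 10 mg/kg and between -1.12 and -0.87 at 20 mg/kg.

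Counts of called genes also moved. At 10 mg/kg, 5 genes were called, and 331 with no filter, 40 with DESeq2, 15 with the mitochondrial covariate, 26 without the libraries of low share, 3 at adjusted p under 0.05, and 2 to 8 with 1 library left out. At 20 mg/kg, 52 were called, and 416, 182, 1386, 107 and 23 under the same settings, and 14 to 54 with 1 library left out. Between the doses, 0 were called, and 256 with no filter, 12 with DESeq2 and 62 with the covariate. The cause was not tested.

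Members called at 10 mg/kg numbered 0, and 1 (Gatm) with no filter, DESeq2 or the covariate, as did genes of the pathway list. At 20 mg/kg 1 was called, and 0 without Control replicate 1, Control replicate 4 or 20CBD replicate 2 (0 to 1 with 1 library left out), for the members and for the list, which had 7 with the covariate. Between the doses 0 of the list were called, and 1 with no filter (Bhmt) or the covariate (Ddah2).

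Replicate numbers did not pair the mice: the correlation of same-numbered libraries ran from -0.33 to 0.317 over 12 pairs, and 3 of 12 libraries correlated best with their own number. With the replicate block 27 genes were called at 20 mg/kg, with Gatm among them.

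With 4 mice a group, genes of few counts are measured with wide error. Whether reads carried molecular identifiers is not given in the sources used here, and without them counts are not independent molecules.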
